A study of Homo sapiens with 6 samples.

Results

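The 40 genes described here act in G2 and mitosis. They were chosen by symbol, with earlier results of these data known, so the comparisons with all genes below are not independent evidence. Each was read by the brightest of its single-gene probe sets, the one with the highest mean log2 signal over 6 arrays. All 40 passed the filter on dim signals, out of 13036 genes that did, and 19775 genes had a probe set annotated with their symbol alone. RNA came from 2 human cell lines of an aggressive cancer of mature B cells, diffuse large B-cell lymphoma. KARPAS-422 had 2 shEZH2 arrays and 2 shNTC arrays, and Pfeiffer had 1 shEZH2 array and 1 shNTC array, all labelled 10 days. Cells of both arms received lentivirus with polybrene at 8 µg/ml in medium with 10% serum, and after 2 days puromycin at 1 µg/ml for 2 days, so the controls carry a virus and its selection too. shEZH2 targets EZH2, the enzyme of Polycomb repressive complex 2 that methylates histone H3, and shNTC carries a sequence described as a non-mammalian control. Each arm rests on 1 hairpin, so an effect of loss of EZH2 and another effect of the same sequence cannot be told apart. The labels call the KARPAS-422 arrays biological replicates without naming separate infections, so p-values measure the spread between these arrays, which may be technical.

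The 2 hairpin inserts define the arms, and the pairing stem of each is in capitals.
shEZH2: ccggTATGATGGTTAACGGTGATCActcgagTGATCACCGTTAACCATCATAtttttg
shNTC: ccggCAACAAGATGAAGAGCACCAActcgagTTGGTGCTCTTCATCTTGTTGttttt
Each stem is 21 bases long, on both sides of a 6-base loop.

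A cell enters mitosis when CDK1 bound to a B-type cyclin becomes active. Kinesins and spindle proteins then build the spindle, kinetochores tie chromosomes to it, the spindle checkpoint delays anaphase until all are attached, and the anaphase-promoting complex with CDC20 destroys cyclin B and securin. Transcripts of these genes build up in G2 and are low in resting cells, which is why they are read as markers of dividing cells, among them germinal centre B cells. In RNA from many cells, fewer cells in G2 or mitosis and less of these transcripts per cell cannot be told apart.

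EZH2 was lower with its hairpin on every array. Its log2 signal in KARPAS-422 was 10.52 and 10.55 on the shEZH2 arrays, against 11.71 and 11.57 on the shNTC arrays, and in Pfeiffer it was 10.24 on the shEZH2 array, against 11.65 on the shNTC array. That left 46.3% of the control level in KARPAS-422 (difference -1.11, SE 0.10, adjusted p = 7.73e-04 in limma) and 37.6% in Pfeiffer. All signals are log2 MAS5 values and all differences are shEZH2 minus shNTC on that scale, unless another is named. Across the libraries, 7 of 7 B cell marker genes read by a single-gene probe set were above the median of all values on each array, with summed linear signals of 56319 and 55611 on the KARPAS-422 shEZH2 arrays, against 55445 and 45579 on the shNTC arrays, and 67004 with shEZH2 against 62993 with shNTC in Pfeiffer. Of 10 T and NK cell markers 1 to 3 were above it, and their summed linear signal was 4022 to 4427 on the KARPAS-422 shEZH2 arrays, against 6452 to 7038 on the shNTC arrays, with CD3D and CD3G leading in both arms. In Pfeiffer that sum was 12732 with shEZH2 and 11804 with shNTC, mostly from CD8A, while CD2, CD4, NKG7, GNLY, KLRD1 and TRAT1 were below the median on every array. Of 8 myeloid markers 0 to 3 were above it, with sums of 201 to 311 on the KARPAS-422 shEZH2 arrays, against 362 to 371 on the shNTC arrays, and 320.2 with shEZH2 against 289.7 with shNTC in Pfeiffer. Of 10 fibroblast and epithelial markers 3 to 6 were above it. Their sums in KARPAS-422, mostly from DCN, were 11625 to 13032 with shEZH2, against 13037 to 13992 with shNTC. In Pfeiffer the sums, mostly from EPCAM, were 9357 with shEZH2 against 11652 with shNTC. For ACTB, the control probe set at the 3' end read above the one at the 5' end by 0.138 and 0.175 on the KARPAS-422 shEZH2 arrays, against 0.0593 and 0.0830 on the shNTC arrays, and 0.126 with shEZH2 against 0.109 with shNTC in Pfeiffer. The same measure for GAPDH was -0.169 and -0.241 on the KARPAS-422 shEZH2 arrays, against -0.182 and -0.158 on the shNTC arrays, where the arms overlapped, and -0.0999 with shEZH2 against -0.148 with shNTC in Pfeiffer. The ACTB measure and the sums of these 4 marker lists moved with the hairpin in KARPAS-422, and their part in the results was not tested.

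Genes of mitosis were lower with shEZH2 in both lines. In KARPAS-422, 28 of the 40 fell and 0 rose, with a median difference of -0.49, or 71.0% of the control level. Over all genes tested, 12.3% fell and 13.1% rose and the median was -0.02. The mean was lower for 39 of the 40, against 51.6% of all genes, and at least 0.5 log2 units lower for 19, against 13.3%. Both shEZH2 arrays lay below both shNTC arrays for 38 of the 40, against 33.9% of all genes, and the exceptions were CDC25B and ANLN. PLK1 fell furthest, followed by CCNA2, CDC20 and BIRC5. The test was limma's moderated one over all 6 arrays, two-sided, with Benjamini-Hochberg adjustment over 13036 genes and a threshold of 0.05, and every adjusted p below comes from it. The count rests on both shEZH2 arrays and on a spread that follows signal: it was 16 without replicate 1 of shEZH2 (4.12% of all genes then fell), 11 without replicate 2 of shEZH2 (3.21%), 28 and 22 without replicates 1 and 2 of shNTC, and 3 without the intensity trend (1.03%). The 9 genes that kept the call without each of the 4 arrays in turn were CCNA2, CCNB1, CCNB2, PLK1, TTK, CENPN, NDC80, KIF2C and BIRC5.

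**Figure D1:**
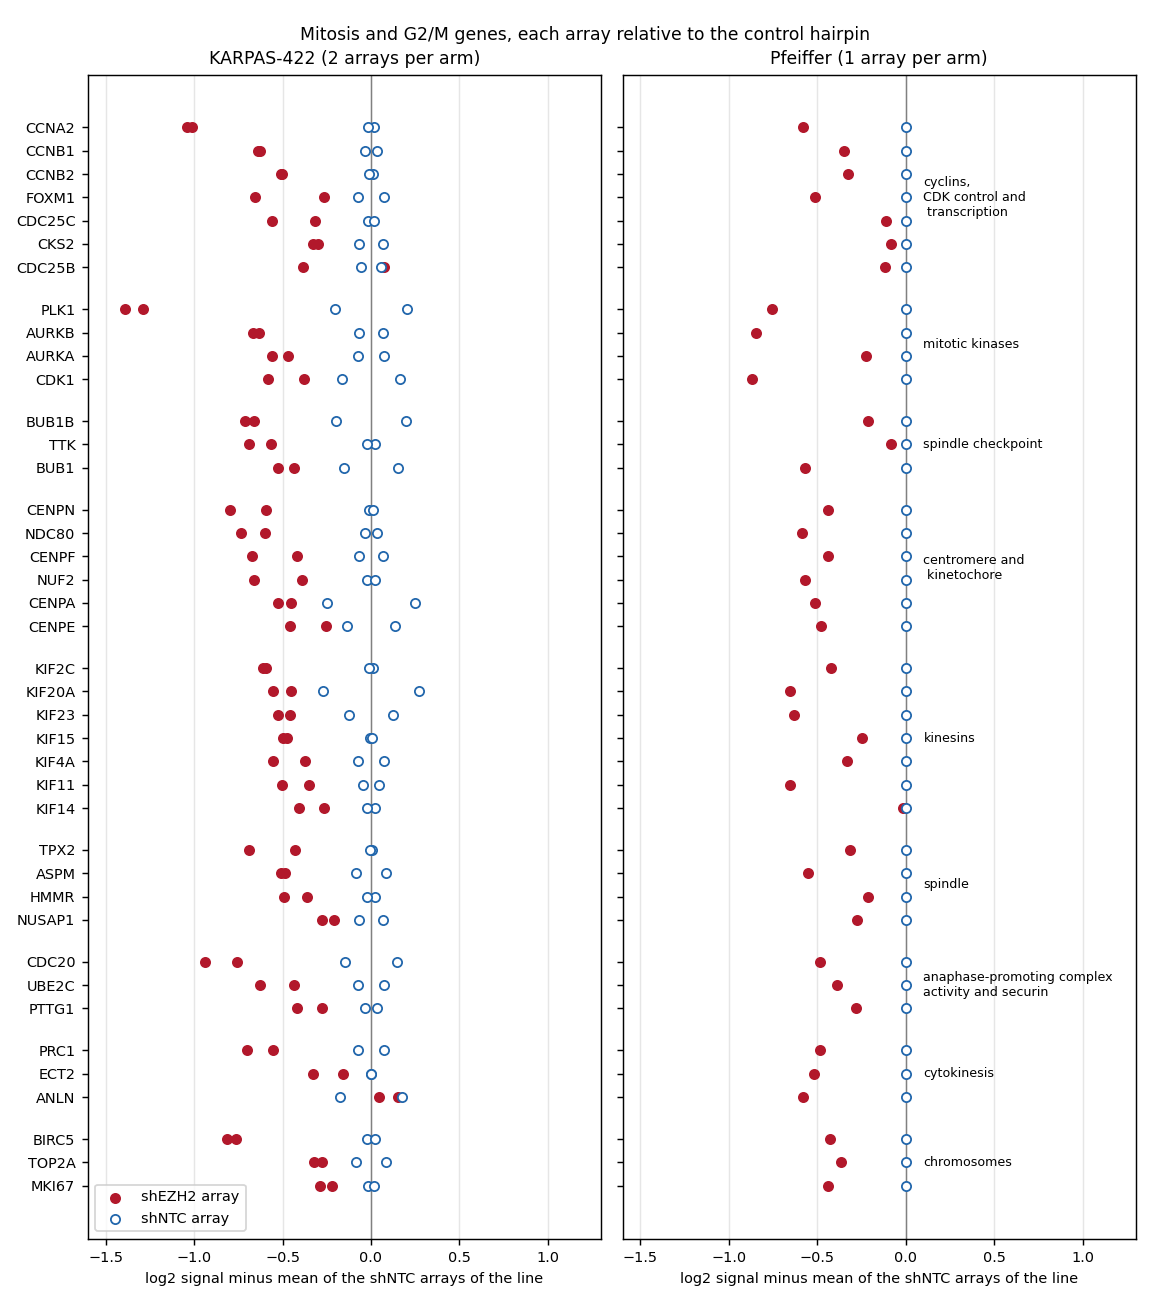
Log2 signal of each of the 40 genes on every array, minus the mean of the shNTC arrays of its line, for KARPAS-422 (left, 2 arrays per arm) and Pfeiffer (right, 1 array per arm); filled red points are shEZH2 arrays, open blue points shNTC arrays, and genes are grouped by role. In KARPAS-422 the red points lie left of both blue points for 38 genes, and in Pfeiffer the red point lies left of the blue one for all 40.

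The control arrays were not equally high. Replicate 2 of shNTC lay above replicate 1 for 29 of the 40 genes, against 55.0% of all genes, and replicate 2 of shEZH2 lay above its replicate 1 for 14 of the 40, against 46.3%. Replicates of shNTC stood at least 0.5 log2 units apart for 1 of the 40 genes, KIF20A, against 16.6% of all genes, and those of shEZH2 for 0 of the 40, against 13.5%. The median difference was -0.44 without replicate 2 of shNTC and -0.58 without replicate 1.

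In Pfeiffer all 40 genes read lower with shEZH2, where 45.4% of all genes did, and the median difference was -0.44, or 73.8% of the control level, against 0.03 for all genes tested. With 1 array per arm this has no replicate check and no test. At least 0.5 log2 units lower were 15 of the 40, against 6.11% of all genes, and 0 were as much higher, against 11.9%. None reached 1 log2 unit lower, which 1.48% of all genes did, or 1 log2 unit higher, which 3.23% did. For scale, the widest gap between KARPAS-422 replicates of 1 arm among these genes was 0.54. The median of all probe sets was 6.41 on the Pfeiffer shEZH2 array and 6.29 on the shNTC array. Centring each array on its median thus lowered the Pfeiffer differences of all genes alike, and moved their median to -0.09. Of the 40 genes, 24 then lay at least 0.5 lower, so the rise from 15 to 24 goes with a shift of the whole array. All 40 stayed below 0 under quantile normalization and centring, and 39 under cyclic loess, where KIF14 read 0.0022.

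The promoters of PLK1, CCNA2 and CDC20, which fell furthest in KARPAS-422, and of ANLN, which did not fall there, are shown with matches to short motifs. Many promoters of genes expressed in G2 and mitosis hold a cell cycle genes homology region (CHR), bound by the MuvB complexes, near a CCAAT box, bound by NF-Y. The windows run from 250 bases before to 50 after the start in RefSeq (GRCh38.p14), 5′ to 3′ along the gene, with matches to TTTGAA (the CHR core) and CCAAT on either strand in capitals, where the other strand reads TTCAAA and ATTGG.
PLK1 (chr16:23678639-23678938, plus strand): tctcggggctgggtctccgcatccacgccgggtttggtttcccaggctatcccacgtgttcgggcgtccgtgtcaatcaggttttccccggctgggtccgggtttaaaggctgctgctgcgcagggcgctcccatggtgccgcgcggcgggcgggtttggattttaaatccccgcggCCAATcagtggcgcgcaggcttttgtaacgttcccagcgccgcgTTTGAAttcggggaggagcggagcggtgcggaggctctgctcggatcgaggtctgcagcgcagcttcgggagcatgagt
CCNA2 (chr4:121823834-121824133, minus strand): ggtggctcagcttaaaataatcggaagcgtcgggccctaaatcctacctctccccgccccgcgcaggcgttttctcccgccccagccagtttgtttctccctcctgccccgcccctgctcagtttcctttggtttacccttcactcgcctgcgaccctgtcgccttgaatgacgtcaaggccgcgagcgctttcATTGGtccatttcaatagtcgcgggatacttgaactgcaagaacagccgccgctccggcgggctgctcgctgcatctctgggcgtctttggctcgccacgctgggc
CDC20 (chr1:43358731-43359030, plus strand): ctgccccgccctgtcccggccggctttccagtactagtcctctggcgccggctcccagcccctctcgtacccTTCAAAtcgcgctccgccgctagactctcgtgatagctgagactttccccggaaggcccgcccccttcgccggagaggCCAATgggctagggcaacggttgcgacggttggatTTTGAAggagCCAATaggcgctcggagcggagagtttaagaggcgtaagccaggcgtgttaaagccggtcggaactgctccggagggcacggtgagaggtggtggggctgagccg
ANLN (chr7:36389612-36389911, plus strand): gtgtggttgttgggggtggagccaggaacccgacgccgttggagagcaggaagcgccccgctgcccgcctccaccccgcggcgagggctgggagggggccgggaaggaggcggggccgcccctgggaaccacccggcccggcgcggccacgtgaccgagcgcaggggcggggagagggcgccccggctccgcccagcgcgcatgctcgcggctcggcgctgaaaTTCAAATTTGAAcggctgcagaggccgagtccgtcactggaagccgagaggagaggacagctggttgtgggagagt
In PLK1 the CHR core begins 29 bases before the start and the CCAAT box 73 before it. CDC20 has a CHR core at 65 and another, on the other strand, at 178, with CCAAT boxes at 55 and 100. ANLN has cores on both strands side by side, at 20 and 26, and no CCAAT in the window. CCNA2 has a CCAAT box on the other strand at 56, and the letters TTTGAA are not in its window.

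RefSeq windows of this kind were found for 34 of the 40 genes. TTTGAA was in 24 of the 34 (70.6%), against 10.2% of 10537 genes tested and 15.4% of all 27305 promoters in the table. CCAAT was in 25 of them (73.5%), against 36.8% of genes tested, and both motifs were in 19 (55.9%), against 4.24%. Within the 34, the medians with and without the motif were close: the median KARPAS-422 difference was -0.49 for the 24 with TTTGAA and -0.49 for the 10 without, and in Pfeiffer -0.46 and -0.45. Outside the list, 428 tested genes held both motifs, and their median difference was -0.08 in KARPAS-422, where 16.8% fell, and -0.02 in Pfeiffer. A match of letters is not a bound site, and these shares carry no test. A search for exact letters also misses sites spelled otherwise, so the 10 without TTTGAA may hold a CHR.

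The cyclins and the genes that set CDK1 activity differed in how far they moved. CCNA2, cyclin A2, which partners CDK2 and then CDK1, read 11.73 and 11.76 on the shEZH2 arrays, against 12.79 and 12.76 on the shNTC arrays in KARPAS-422, a difference of -1.03 (adjusted p = 4.13e-04, SE 0.08, n = 2 per arm) that left 49.1% of the control level. Its replicates nearly coincided within each arm, far apart from the other arm. In Pfeiffer it read 11.62 on the shEZH2 array, against 12.20 on the shNTC array. CCNB1, the main mitotic cyclin, fell to 12.06 and 12.05 in KARPAS-422 shEZH2 cells, against 12.66 and 12.73 with shNTC, a difference of -0.63 (adjusted p = 0.00227, SE 0.08, n = 2 per arm). That call rests on 1 probe set: a second one, the only one left without _x_at, _s_at and _a_at types, gave -0.0018 (adjusted p = 0.992) in KARPAS-422, and both were lower in Pfeiffer, by 0.35 and 0.32. CCNB2, the other B-type cyclin here, fell by 0.51 (SE 0.08, adjusted p = 0.00577) and read -0.33 in Pfeiffer. CKS2, a small CDK-binding subunit, fell by 0.31 (SE 0.07, adjusted p = 0.0212), but its difference shrank to -0.09 with quantile normalization (adjusted p = 0.423) and to -0.03 with cyclic loess (adjusted p = 0.751).

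The phosphatases and the transcription factor of this group did not pass in KARPAS-422 at the settings given above. CDC25B, which removes inhibitory phosphates from CDK1, read 10.23 and 9.78 on the shEZH2 arrays, against 10.11 and 10.21 on the shNTC arrays, and its arms overlapped. Its difference of -0.15 (adjusted p = 0.525) turned to 0.075 without replicate 2 of shEZH2. CDC25C, with the same action, was at -0.44 (SE 0.15, adjusted p = 0.0706) with arms that did not overlap, and it passed with quantile normalization (-0.62, adjusted p = 0.0271), centring (-0.50, adjusted p = 0.0435) and cyclic loess (-0.55, adjusted p = 0.0388). FOXM1, a transcription factor that switches on G2 and M genes, read 10.19 and 9.80 on the shEZH2 arrays, against 10.38 and 10.53 on the shNTC arrays (-0.46, adjusted p = 0.0664). It passed with centring (-0.52, adjusted p = 0.0454) and with the filter that asks for all 6 arrays (adjusted p = 0.0426). In Pfeiffer FOXM1 was at -0.52, CDC25B at -0.12 and CDC25C at -0.11.

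All 4 mitotic kinases fell in KARPAS-422, against 12.3% of all genes. PLK1, which drives mitotic entry, spindle assembly and cytokinesis, read 9.20 and 9.10 on the shEZH2 arrays, against 10.29 and 10.70 on the shNTC arrays, a difference of -1.34 (adjusted p = 0.00190, SE 0.15, n = 2 per arm) that left 39.5% of the control level. Even the nearest arrays of the arms stood over 1 log2 unit apart, wider than the gap between the control arrays. PLK1 and CCNA2 were the 2 genes whose call held under every alternative run for KARPAS-422. AURKB, the kinase of the chromosomal passenger complex, fell by 0.65 (SE 0.10, adjusted p = 0.00577), and AURKA, which acts at centrosomes and spindle poles, by 0.51 (SE 0.09, adjusted p = 0.00861). Without _x_at, _s_at and _a_at types AURKA was at -0.57 and did not pass (adjusted p = 0.104). A second, dimmer AURKB probe set was 0.53 higher in KARPAS-422 and 0.70 lower in Pfeiffer. The mean of both gave -0.06 (adjusted p = 0.780). CDK1, the kinase of mitotic entry, read 12.56 and 12.36 on the shEZH2 arrays, against 12.78 and 13.10 on the shNTC arrays, and fell by 0.48 (SE 0.12, adjusted p = 0.0294). Quantile normalization (-0.35, adjusted p = 0.0905) and cyclic loess (-0.30, adjusted p = 0.120) each ended that call.

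In Pfeiffer 3 of the kinases had the widest differences of the 40 genes. CDK1 read 12.13 on the shEZH2 array, against 13.00 on the shNTC array, which left 54.7%. AURKB read 9.60 on the shEZH2 array, against 10.45 on the shNTC array, and PLK1 read 10.68 on the shEZH2 array, against 11.44 on the shNTC array. AURKA differed by -0.23 only. The order of the kinases thus differed between lines, with PLK1 widest in KARPAS-422 and CDK1 in Pfeiffer, but neither difference between lines passed the test given below.

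The spindle checkpoint genes BUB1, BUB1B and TTK fell in KARPAS-422. BUB1B, which encodes the checkpoint protein BubR1, read 11.39 and 11.34 on the shEZH2 arrays, against 11.86 and 12.25 on the shNTC arrays. The difference was -0.69 (adjusted p = 0.0107, SE 0.13, n = 2 per arm). TTK, the kinase MPS1 that starts the checkpoint signal, read 11.27 and 11.40 on the shEZH2 arrays, against 11.98 and 11.94 on the shNTC arrays, a difference of -0.63 (adjusted p = 0.00455, SE 0.09, n = 2 per arm). BUB1, which recruits the other checkpoint proteins to kinetochores, fell by 0.48 (SE 0.12, adjusted p = 0.0289). In Pfeiffer BUB1 was at -0.57, BUB1B at -0.22 and TTK at -0.09. KARPAS-422 replicates of 1 arm differed by up to 0.39 for BUB1B and 0.12 for TTK, wider than the Pfeiffer differences of both genes. The dimmest kept BUB1 probe set read 0.08 higher in Pfeiffer, unlike its other 3.

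Of 6 centromere and kinetochore genes, 4 fell in KARPAS-422, against 12.3% of all genes. CENPN, which binds nucleosomes with CENP-A, fell to 10.35 and 10.14 with shEZH2, against 10.93 and 10.95 with shNTC, a difference of -0.70 (adjusted p = 0.00567, SE 0.11, n = 2 per arm). Its other kept probe sets were at -0.40 and -0.25, and without _x_at, _s_at and _a_at types it did not pass (-0.40, adjusted p = 0.0714). NDC80 and NUF2 are partners in the complex that grips microtubules, and they fell by 0.67 (SE 0.10, adjusted p = 0.00405) and 0.53 (SE 0.11, adjusted p = 0.0140). In Pfeiffer the pair differed by -0.58 and -0.57. CENPF, a large coiled-coil protein of the outer kinetochore, fell by 0.54 (SE 0.12, adjusted p = 0.0173). CENPA, the histone H3 variant that marks centromeres, read 9.49 and 9.42 on the shEZH2 arrays, against 9.69 and 10.19 on the shNTC arrays. Its arms did not overlap, but the control arrays stood about as far apart as the means of the arms, and the difference of -0.49 did not pass (adjusted p = 0.0779). It was -0.74 without replicate 1 of shNTC (adjusted p = 0.0107) and -0.24 without replicate 2, and it passed with centring, quantile normalization and the filter on all 6 arrays (adjusted p = 0.0415 to 0.0499). CENPE, a kinesin of the kinetochore, was at -0.36 (SE 0.14, adjusted p = 0.0952). In Pfeiffer CENPA, CENPE, CENPF and CENPN lay between -0.52 and -0.44.

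Of 7 kinesins named KIF, 5 fell in KARPAS-422, against 12.3% of all genes. KIF2C, which shortens microtubules at centromeres, read 10.63 and 10.62 on the shEZH2 arrays, against 11.24 and 11.22 on the shNTC arrays, a difference of -0.60 (adjusted p = 0.00532, SE 0.09, n = 2 per arm). KIF23, a subunit of the centralspindlin complex of the midzone, fell by 0.49 (SE 0.14, adjusted p = 0.0371) on its brightest probe set and read 0.10 higher on another, dim one. KIF15, which helps keep spindle poles apart, fell by 0.49, the chromosome-bound KIF4A by 0.46 and the pole-separating motor KIF11 by 0.43 (adjusted p = 0.0171, 0.0255 and 0.0297). KIF20A, needed at the midzone for cytokinesis, read 9.76 and 9.65 on the shEZH2 arrays, against 9.94 and 10.48 on the shNTC arrays, and the gap of 0.54 between its control arrays was the widest of the 40 genes. Its difference of -0.50 did not pass (adjusted p = 0.0797), nor did that of the midbody kinesin KIF14 (-0.34, adjusted p = 0.0578). Without replicate 1 of shNTC KIF20A was at -0.77 (adjusted p = 0.00834), and without replicate 2 at -0.23. Both genes passed with centring and with the filter on all 6 arrays (KIF20A adjusted p = 0.0493 and 0.0481, KIF14 adjusted p = 0.0372 and 0.0431), and KIF14 with averaged probe sets (-0.43, adjusted p = 0.0239).

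The kinesins spread widely in Pfeiffer. KIF11 read 10.64 on the shEZH2 array, against 11.30 on the shNTC array, KIF20A read 10.39 on the shEZH2 array, against 11.04 on the shNTC array and KIF23 read 9.43 on the shEZH2 array, against 10.06 on the shNTC array, each at least 0.5 lower. KIF2C was at -0.42, KIF4A at -0.33 and KIF15 at -0.25. KIF14 was nearly equal, at 10.69 with shEZH2 and 10.71 with shNTC.

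Spindle proteins and the anaphase machinery followed in KARPAS-422, with 3 of 4 and 3 of 3 lower, against 12.3% of all genes. TPX2, which activates AURKA on the spindle, fell by 0.56 (SE 0.11, adjusted p = 0.0102), the spindle pole protein ASPM by 0.50 (SE 0.09, adjusted p = 0.0100) and the microtubule-binding HMMR by 0.43 (SE 0.08, adjusted p = 0.00997). With averaged probe sets ASPM was at -0.43 and did not pass (adjusted p = 0.0558). The HMMR call was lost after cyclic loess (-0.23, adjusted p = 0.0735). NUSAP1, a spindle microtubule protein, was at -0.24 (adjusted p = 0.0734) on its brightest probe set and passed when its 2 probe sets were averaged (-0.36, adjusted p = 0.0224) and with centring (-0.30, adjusted p = 0.0431). CDC20, the activator of the anaphase-promoting complex, read 11.93 and 11.75 on the shEZH2 arrays, against 12.54 and 12.83 on the shNTC arrays, a difference of -0.85 (adjusted p = 0.00395, SE 0.12, n = 2 per arm) that left 55.6% of the control level. UBE2C, the ubiquitin-conjugating enzyme of that complex, fell by 0.53 (SE 0.10, adjusted p = 0.00994), and PTTG1, securin, by 0.35 (SE 0.08, adjusted p = 0.0198). As with CKS2, the PTTG1 call was lost with quantile normalization (-0.19, adjusted p = 0.0568) and with cyclic loess (-0.11, adjusted p = 0.261). In Pfeiffer these 7 genes lay between -0.55 for ASPM and -0.21 for HMMR.

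Genes of cytokinesis and of chromosome structure held several that did not pass in KARPAS-422. PRC1, which bundles microtubules of the midzone, fell to 11.35 and 11.21 with shEZH2, against 11.84 and 11.98 with shNTC, a difference of -0.63 (adjusted p = 0.00577, SE 0.10, n = 2 per arm). ECT2, the exchange factor that activates RhoA at the cleavage site, was at -0.24 (SE 0.11, adjusted p = 0.148). ANLN, anillin, a scaffold of the contractile ring, read 9.91 and 10.01 on the shEZH2 arrays, against 9.69 and 10.04 on the shNTC arrays. Its arms overlapped and the difference of 0.10 did not pass (SE 0.15, adjusted p = 0.661), and a second probe set gave 0.02. In Pfeiffer ANLN read 9.74 on the shEZH2 array, against 10.33 on the shNTC array, ECT2 differed by -0.52 and PRC1 by -0.49.

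BIRC5, survivin, the partner of AURKB in the passenger complex, read 11.33 and 11.38 on the shEZH2 arrays, against 12.12 and 12.17 on the shNTC arrays in KARPAS-422, a difference of -0.79 (adjusted p = 0.00146, SE 0.08, n = 2 per arm). All 4 of its kept probe sets were lower there, by 0.55 to 0.92, while in Pfeiffer 3 were lower and the dimmest read 0.68 higher. Without _x_at, _s_at and _a_at types BIRC5 was at -0.55 in KARPAS-422 and did not pass (adjusted p = 0.0509). TOP2A, the topoisomerase that untangles chromosomes, was at -0.30 (SE 0.09, adjusted p = 0.0514), and passed with centring (-0.36, adjusted p = 0.0284), with the filter on all 6 arrays (adjusted p = 0.0327) and with 32 added to the signal (adjusted p = 0.0495). MKI67, the gene of the proliferation marker Ki-67, read 10.26 and 10.19 on the shEZH2 arrays, against 10.46 and 10.50 on the shNTC arrays (-0.26, adjusted p = 0.112), and its other 3 probe sets were at -0.14, -0.05 and -0.13. In Pfeiffer MKI67 read 10.55 on the shEZH2 array, against 10.99 on the shNTC array and TOP2A differed by -0.37.

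More than 1 kept probe set was available for 21 of the 40 genes. Of all 72 kept probe sets, 68 were lower with shEZH2 in KARPAS-422 and 70 in Pfeiffer. Besides ANLN, which had both of its sets above 0 in KARPAS-422, a set of the opposite sign to the brightest was found for AURKB and KIF23 in KARPAS-422 and for BUB1 and BIRC5 in Pfeiffer. Probe sets of 1 gene were read on the same arrays and are not replicates.

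**Figure D2:**
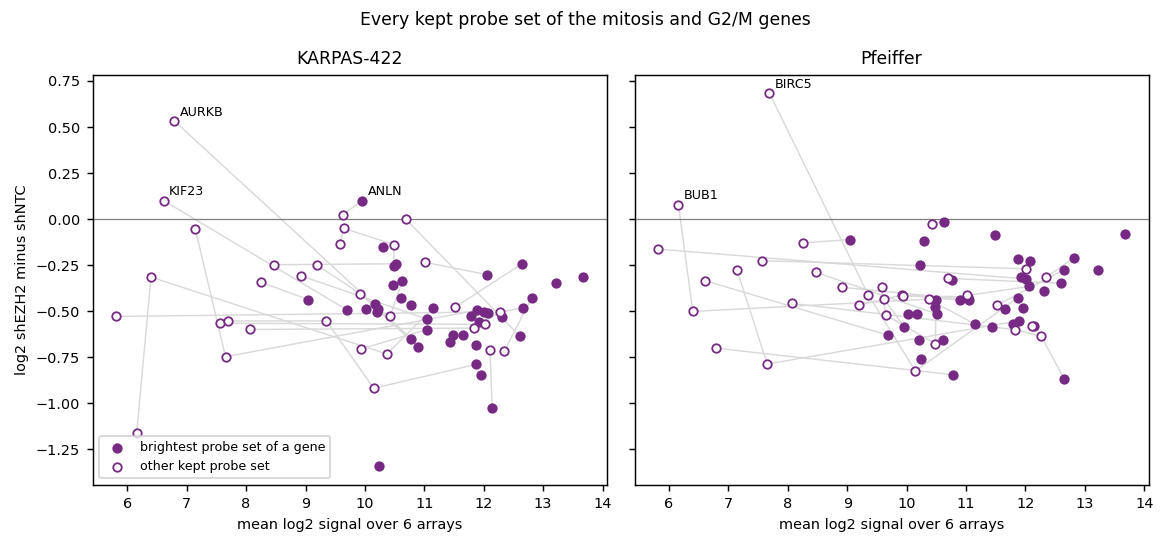
Difference shEZH2 minus shNTC (log2) of each of the 72 kept probe sets against its mean log2 signal over 6 arrays, for KARPAS-422 and Pfeiffer; filled points are the brightest probe set of a gene, open points its others, and grey lines join sets of 1 gene. In KARPAS-422 68 sets lie below 0 and in Pfeiffer 70, and the open points above 0 that are named are dimmer than the filled point of their gene.

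Over both lines, with a term for the line, 20 of the 40 genes fell and 0 rose, against 2.46% and 3.76% of all genes. The widest were PLK1 at -1.15 (SE 0.16, adjusted p = 0.0240), CCNA2 at -0.88 (SE 0.11, adjusted p = 0.0188), CDC20 at -0.73 (SE 0.12, adjusted p = 0.0296) and AURKB at -0.72 (SE 0.10, adjusted p = 0.0239). Each had n = 3 per arm, 2 KARPAS-422 arrays and 1 Pfeiffer array, so KARPAS-422 weighs more in these values. For 38 genes both KARPAS-422 shEZH2 arrays lay below both shNTC arrays and Pfeiffer was lower too, against 20.5% of all genes. The count was 0 in limma without any of the 4 KARPAS-422 arrays, where 0 to 0.0153% of all genes fell. At an unadjusted p under 0.05, 33 to 36 of the 40 were then lower, against 7.54% to 8.69% of all genes. It was 0 without the intensity trend as well, with 34 lower at an unadjusted p under 0.05, against 10.3% of all genes.

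The effect did not pass a test of difference between lines for any of the 40 genes. In limma 0 passed, where 222 of all genes (1.70%) did, 0.453% with the more negative effect in KARPAS-422 and 1.25% with the more positive one. An unadjusted p under 0.05 was found for 4 of the 40 (10% of them), below the 17.5% of all genes, and their values are a description. They were TTK, with an effect in KARPAS-422 minus that in Pfeiffer of -0.54 (95% interval -0.92 to -0.16, adjusted p = 0.161), CCNA2 at -0.45 (95% interval -0.77 to -0.12, adjusted p = 0.170), BIRC5 at -0.36 (95% interval -0.70 to -0.02, adjusted p = 0.264) and ANLN at 0.68 (95% interval 0.08 to 1.28, adjusted p = 0.235). For the first 3 the KARPAS-422 effect was more negative, and for ANLN the Pfeiffer one. The 95% intervals reached 0.30 to 0.73 log2 units to each side, about as wide as the effects themselves, so the lines are not shown to act alike. The difference was wider in KARPAS-422 for 24 genes and in Pfeiffer for 16. Across the 40 genes the differences of the lines, which share no array, correlated at r = 0.30 (Spearman's rho 0.24), and at r = 0.15 over the 38 left without PLK1 and CCNA2. Genes are not independent replicates, so no p is given.

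**Figure D3:**
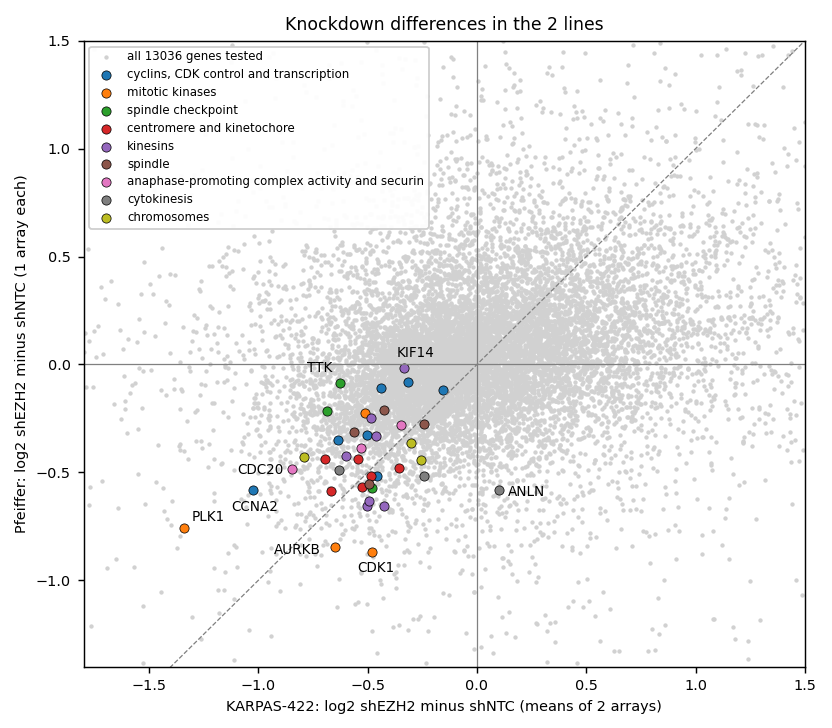
Difference shEZH2 minus shNTC (log2) in KARPAS-422 (x, means of 2 arrays) against that in Pfeiffer (y, 1 array each) for the 40 genes, coloured by role, over the 13036 genes tested (grey, those outside the axes not drawn); the dashed line marks equal differences. Of the 40 genes, 39 lie left of 0 and all 40 below 0, with ANLN alone on the right.

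The level of these genes under the control hairpin differed between the lines in both directions. On the shNTC arrays, 11 of the 40 genes were higher in KARPAS-422 and 11 lower, against 21.7% and 22.5% of all genes, so the shares were near those of the whole array. NUF2 read 12.43 and 12.48 in KARPAS-422, against 11.26 in Pfeiffer, a difference of 1.20 (SE 0.13, adjusted p = 3.41e-04). CDC20 read 12.54 and 12.83 in KARPAS-422, against 11.60 in Pfeiffer, a difference of 1.09 (SE 0.15, adjusted p = 8.78e-04), and AURKB was at 1.04 (SE 0.13, adjusted p = 5.24e-04). In the other direction CENPA read 9.69 and 10.19 in KARPAS-422, against 10.90 in Pfeiffer, a difference of -0.96 (SE 0.21, adjusted p = 0.00842). PLK1 was at -0.95 (SE 0.19, adjusted p = 0.00530) and KIF20A at -0.84 (SE 0.22, adjusted p = 0.0180). Pfeiffer had 1 array here and is assumed to vary like KARPAS-422. The 11 differences that held under every alternative run were those of NUF2, CDC20, NDC80, TTK and CCNA2, higher in KARPAS-422, and of CCNB1, ECT2, KIF11, CENPN, CDC25C and PLK1, lower there. Centring each array moved the median of all genes from -0.01 to 0.20 in this comparison, and the count to 14 higher and 8 lower. It was 6 and 13 after cyclic loess, and 7 and 12 after quantile normalization.

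**Figure D4:**
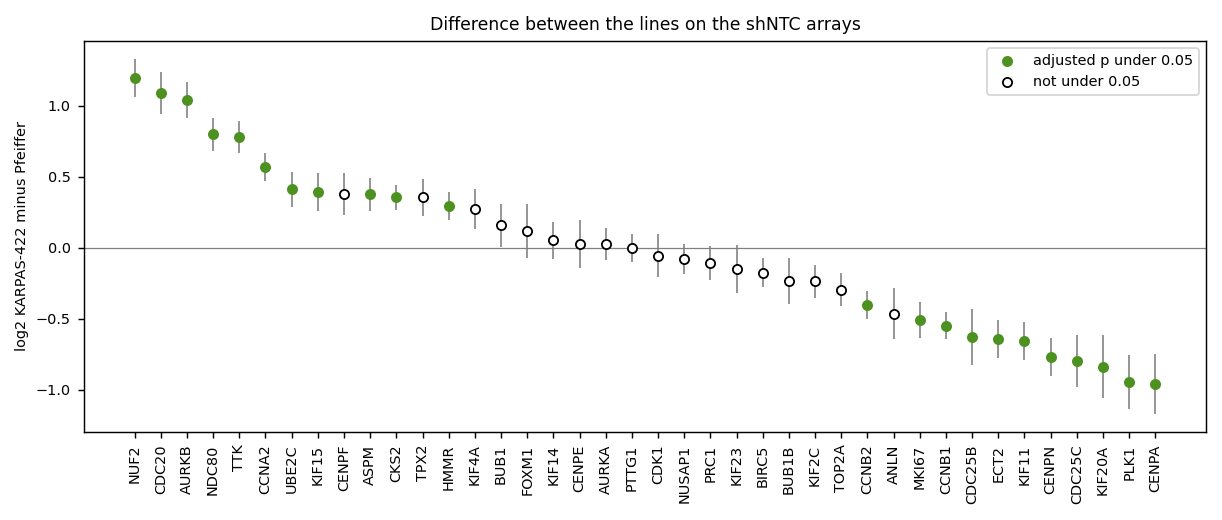
Log2 signal in KARPAS-422 minus Pfeiffer on the shNTC arrays (2 arrays against 1) for the 40 genes in order of size; bars are the standard error from limma and filled points have an adjusted p under 0.05. From NUF2 at 1.20 to CENPA at -0.96, 11 filled points lie above 0 and 11 below.

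Other genes of the same machinery had medians nearer to 0. For comparison with the counts here, 12.3% of all genes tested fell in KARPAS-422 and 13.1% rose. Of 34 further kinetochore and centromere genes measured, 14 fell in KARPAS-422 and 0 rose, with a median of -0.29. PMF1, a subunit of the MIS12 complex, was at -0.84 (SE 0.13, adjusted p = 0.00531), SPC25, a partner of NDC80, at -0.74 (SE 0.10, adjusted p = 0.00329), and MIS18A and OIP5, which load CENP-A, at -0.69 and -0.69. Of 33 further spindle, motor and cytokinesis genes 18 fell and 0 rose, with a median of -0.44, among them CCNF (cyclin F) at -0.80 (SE 0.19, adjusted p = 0.0217), TROAP at -0.77, INCENP, the scaffold of the passenger complex, at -0.75, and CKS1B at -0.65. Of 17 condensin and cohesin genes 6 fell and 0 rose, with a median of -0.23. The condensin subunit NCAPH fell to 9.85 and 9.77 with shEZH2, against 10.75 and 10.97 with shNTC (difference -1.05, SE 0.12, adjusted p = 0.00191), the cohesin subunit STAG1 was at -0.91 (SE 0.13, adjusted p = 0.00374), and SMC2 and NCAPD3 were at -0.69 and -0.51. Over the alternatives run the counts lower ranged from 1 to 15, from 0 to 21 and from 2 to 9, and at most 1 gene of these lists rose under any of them. The share of all genes that fell ranged from 1.03% without the intensity trend to 18.6% with the filter on all 6 arrays. In Pfeiffer the medians of these 3 lists were -0.21, -0.30 and -0.23. Of the genes named from them, MIS18A read 0.03 there, OIP5 -0.08, INCENP -0.10, PMF1 -0.19, SMC2 -0.20, NCAPD3 -0.21 and CKS1B -0.29. STAG1 was at -0.48 in Pfeiffer, TROAP at -0.57, NCAPH at -0.60, CCNF at -0.69 and SPC25 at -0.88.

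The anaphase-promoting complex itself differed little. The 14 genes measured were among its core subunits and its other activator, FZR1. In KARPAS-422 1 fell (0 to 1 over the alternatives run), against 12.3% of all genes. It was ANAPC4, at -0.33 (SE 0.09, adjusted p = 0.0387). The KARPAS-422 difference was below 0 for 12 of the 14, against 51.6% of all genes. Both shEZH2 arrays lay below both shNTC arrays there for 8 of the 14, against 33.9%. In Pfeiffer 8 of the 14 were below 0, against 45.4%. The medians were -0.12 in KARPAS-422 and -0.01 in Pfeiffer, while the activator CDC20 and the enzyme UBE2C fell as given above. Of 12 genes of the MuvB and DREAM complexes, which act at the CHR, 2 fell and 1 rose, near the 12.3% and 13.1% of all genes, and over the alternatives run 0 to 5 fell and 0 to 2 rose. MYBL2 (B-MYB), which joins MuvB to activate mitotic genes, read 11.27 and 10.80 on the shEZH2 arrays, against 11.81 and 11.67 on the shNTC arrays (difference -0.71, SE 0.15, adjusted p = 0.0159), and differed by -0.67 in Pfeiffer. RBL2 (p130), the pocket protein of the repressing form, read 11.10 and 11.14 on the shEZH2 arrays, against 10.52 and 10.47 on the shNTC arrays (difference 0.63, SE 0.10, adjusted p = 0.00513), and differed by 0.48 in Pfeiffer. RBBP4 fell by 0.37 (adjusted p = 0.0141) on its brightest probe set only, and read 0.11 higher without _x_at, _s_at and _a_at types.

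Genes that restrain mitotic entry or growth were mixed, with 2 of 10 lower and 2 higher in KARPAS-422, close to the 12.3% and 13.1% of all genes. Over the alternatives run, 0 to 3 were lower and 1 to 4 higher. The CDK1-inhibiting kinases WEE1 and PKMYT1 fell, with differences of -0.54 (SE 0.09, adjusted p = 0.00577) and -0.70 (SE 0.11, adjusted p = 0.00638), and in Pfeiffer they read 0.02 and -0.21. GADD45A, a stress-induced gene whose protein can inhibit CDK1, read 11.54 and 11.52 on the shEZH2 arrays, against 8.94 and 8.85 on the shNTC arrays, a difference of 2.64 (adjusted p = 4.01e-05, SE 0.10, n = 2 per arm), and 12.76 on the shEZH2 array, against 12.09 on the shNTC array in Pfeiffer. BTG1, an antiproliferative gene, rose to 12.14 and 12.39 with shEZH2, against 11.16 and 10.60 with shNTC (difference 1.38, SE 0.18, adjusted p = 0.00284), and differed by 0.71 in Pfeiffer. Of 24 DNA replication genes, 20 fell in KARPAS-422 and 0 rose, against 12.3% and 13.1% of all genes. Beside medians of -0.49 and -0.44 for the 40 genes, those of the replication genes were -0.57 in KARPAS-422 and -0.35 in Pfeiffer. Their count ranged from 5 to 20 over the alternatives run.

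**Figure D5:**
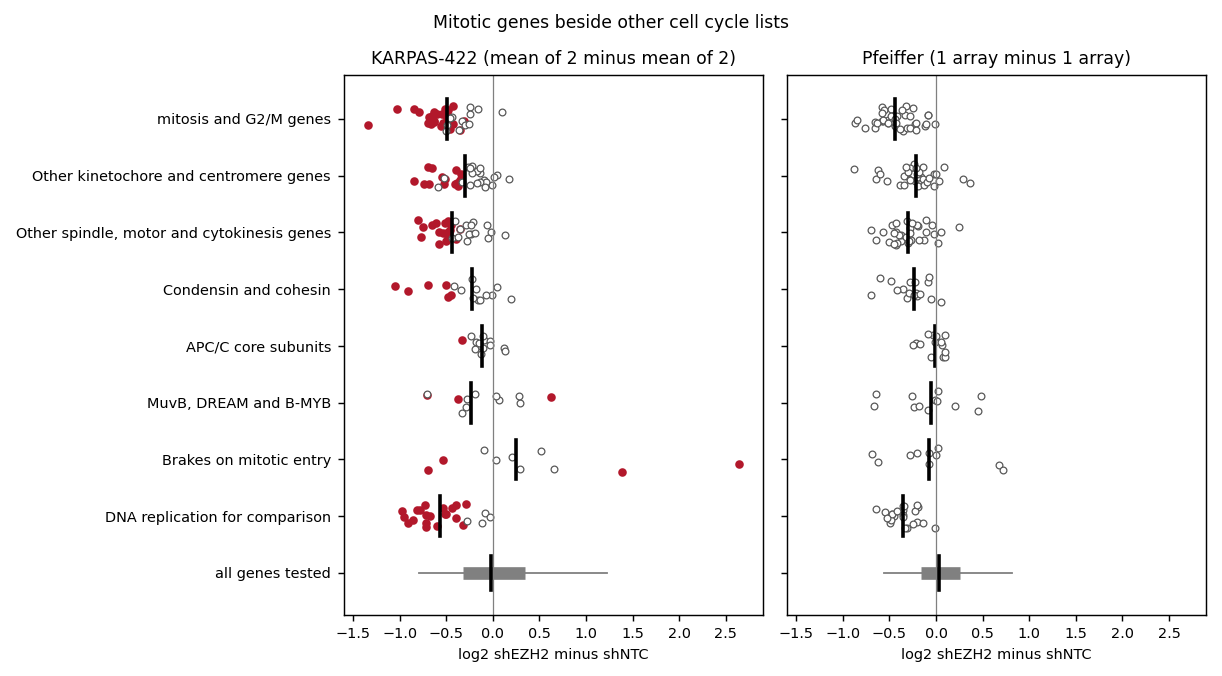
Difference shEZH2 minus shNTC (log2) for the 40 genes, 7 further cell cycle lists and all genes tested, in KARPAS-422 (left) and Pfeiffer (right); points are genes, filled where adjusted p was under 0.05 (KARPAS-422 only), black bars are medians, and the grey bar spans the middle 50% of all genes and the line the middle 90%. The median of the 40 genes lies at -0.49 in KARPAS-422 and -0.44 in Pfeiffer, that of the 24 replication genes at -0.57 and -0.35.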

How the data were processed

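RNA of 6 samples was read on Affymetrix expression arrays. The deposited values are log2 signals that the authors made with MAS5, per the submitters' processing notes, which give no version. On the linear scale their mean, trimmed by 2% at each end, is 500 on every array, and they run from -4.57 to 14.82. Precision is limited by how few arrays there are.

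Of 54675 probe sets, 41091 name a single gene in the platform annotation and 1801 name several. Gene IDs of 41037 were found in RefSeq (GRCh38.p14), and 0 symbols changed. A probe set was kept if at least 2 of the 6 arrays exceeded the median of all values (6.21), and the brightest kept set of each gene was used, which left 13036 genes. limma 3.58.1 in R 4.3.3 was fitted to all 6 arrays as 4 groups, or with line and hairpin as terms for the effect over both lines, with an intensity trend (eBayes), two-sided, Benjamini-Hochberg adjustment over 13036 genes and a threshold of 0.05. Variance rests on 2 residual degrees of freedom (3 over both lines) plus 5.24 (4.72) from all genes. Pfeiffer, with 1 array per arm, was given as differences without a test. The fits were also run on simulated data. The simulated noise followed the signal and was the same in both lines, so that run could not test either assumption. Motifs were searched as letters in RefSeq promoter windows.

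The 40 genes, their roles and the other lists were chosen with earlier results of these data known. All 40 are named, and from each other list at most the 4 called genes per direction with the largest difference. The alternatives were other filters, quantile, median and cyclic loess scaling, 32 added to the linear signal, the mean of a gene's probe sets, no _x_at, _s_at or _a_at sets, no trend, 1 array left out, only KARPAS-422, and the replicate number as a block. Replicate numbers did not pair the KARPAS-422 arrays, and the block is an alternative only.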

Additional observations from a re-analysis of the deposited data

Results flagged for a closer look

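GADD45A rose by more in KARPAS-422 than it differed in Pfeiffer. It read 11.54 and 11.52 on the KARPAS-422 shEZH2 arrays, against 8.94 and 8.85 on the shNTC arrays, and in Pfeiffer 12.76 with shEZH2 against 12.09 with shNTC. The effect in KARPAS-422 minus that in Pfeiffer was 1.96 (adjusted p = 0.00444 in limma). It did not pass without the intensity trend (adjusted p = 0.104), without replicate 1 of shEZH2 (1.95, adjusted p = 0.116) or without replicate 2 of shEZH2 (1.98, adjusted p = 0.101), and it passed under the other alternatives run.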

How the results depend on the processing

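All 40 genes read lower in Pfeiffer, and the KARPAS-422 median stayed between -0.58 and -0.44, under the settings that kept all 40 genes, except that KIF14 turned above 0 in Pfeiffer with cyclic loess. Calls moved more than directions. In KARPAS-422, where 28 genes fell, 17 of 27 left fell without _x_at, _s_at and _a_at sets, 3 without the trend and 11 to 28 when 1 array was left out, where fewer samples remain. Over all genes, 12.3% fell, against 8.70%, 1.03% and 3.21% to 8.54% under the same settings. The other settings gave 25 to 35, where 6.20% to 18.6% of all genes fell. Over both lines 20 fell, beside 2.46% of all genes. The count was 12 with no filter (0.501% of all genes), 35 with centring (7.92%) and 11 without those probe set types (1.43%). It was 0 without the trend, without any 1 of 4 arrays, and with the replicate block, where 0 to 0.0153% of all genes fell. In limma with the block, 36 of the 40 were lower at an unadjusted p under 0.05, against 11.3% of all genes. In KARPAS-422 the replicate block gave 29, with TOP2A among them (adjusted p = 0.0382). Replicate numbers did not pair the samples (correlation of deviations 0.0065 over all genes). For the lines on shNTC arrays, 11 genes higher in KARPAS-422 became 7 with quantile normalization, 6 with cyclic loess, 6 without the trend and 6 to 10 when 1 array was left out, and 11 lower became 7 without the probe set types and 6 without the trend. In Pfeiffer, 24 genes in place of 15 were at least 0.5 lower with centring, which lowered the differences of all genes alike. KARPAS-422 signs turned for KIF23 without the probe set types (0.10), for RBBP4 there (0.11) and with averaged probe sets (0.0013), for CDC25B without 1 array (range -0.38 to 0.075) and for ANLN (-0.074 to 0.27). The cause was not tested. Of the KARPAS-422 values of the 40 genes under these alternatives, 484 kept sign and call, 79 lost a call, 21 gained one and 3 turned. All 40 genes lay above the median of all values on every array.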
